A study of Mus musculus with 8 samples.

Results

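Cyclic AMP is made from ATP by adenylate cyclases and is broken down by phosphodiesterases, and 10 genes of these enzymes were followed in mouse macrophages in which both Mediator kinase genes were targeted. They were the cyclase genes Adcy3, Adcy6, Adcy7 and Adcy9 and the phosphodiesterase genes Pde3b, Pde4a, Pde4b, Pde4d, Pde7a and Pde8a, which are 10 of the 34432 rows of the deposited table. The genes were chosen from measured values of this same comparison, so their values and differences are given as a description with no test. Each was found by its gene symbol, and all 10 had a row. Gene coordinates are on build mm10.

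In the pathway, a hormone or metabolite binds a receptor at the cell surface, and the receptor's G protein then raises cyclase activity (Gs) or lowers it (Gi). The cAMP formed activates protein kinase A and the EPAC exchange factors of Rap1, and in the nucleus it acts through the CREB transcription factors, until phosphodiesterases hydrolyse it to AMP. In macrophages cAMP is known to restrain the release of inflammatory cytokines, and the PDE4 enzymes are known drug targets in inflammatory disease.

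Polyadenylated RNA was sequenced from untreated mouse bone marrow-derived macrophages (M0, cells grown from marrow precursors) on day 7 of differentiation, with 4 libraries per group. The double knockout macrophages were Cdk19null and had Cdk8 flox/flox alleles with Vav-iCre, a recombinase that the Vav promoter drives in cells of the blood lineage. The controls carried the Vav-driven Cre, so both groups share the recombinase. The paralogs Cdk8 and Cdk19 encode kinases of Mediator, which links transcription factors to RNA polymerase, and the comparison asked which transcripts differed between the genotypes. Whether the 4 replicates of a group were different animals or cultures is not in the labels, and p-values therefore reflect a spread between libraries that may be technical.

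Values are normalized read counts, that is reads divided by a size factor for each library, and depth was 17856715 to 21353207 reads per library. Cdk19 stood at 373 ± 25.8 in double knockouts and 1452 ± 189 in controls (log2 -1.95, SE 0.10, adjusted p = 2.95e-08), and Cdk8 at 347 ± 60.8 in double knockouts and 439 ± 24.5 in controls (log2 -0.35, SE 0.12, adjusted p = 0.0374, lost without double knockout 2, 3 or 4 or control 1, 2 or 4, at adjusted p = 0.0551 to 0.104, and in 5 other settings, at adjusted p = 0.0501 to 0.0867). A gene total includes exons outside the floxed part, so it does not check removal of the Cdk8 kinase. Double knockouts 1 and 2 were closer to each other than to 3 and 4, with a chi-square per gene of 7.93 and 9.01 within these pairs and 18.6 to 25.3 across them. The controls also differed among themselves, from 9.08 (controls 2 and 3) to 36.2 (controls 1 and 4). Of 10 macrophage markers, 5 rose and 5 fell, with summed levels of 242667 to 262956 in double knockouts and 311061 to 327578 in controls. All 12 mitosis markers fell (sums 2689 to 2879 in double knockouts and 19318 to 21115 in controls), 5 of 9 monocyte markers fell and 1 rose (sums 3064 to 3798 in double knockouts and 16212 to 16899.9 in controls), and 9 of 11 tested neutrophil markers fell (sums 1086 to 1348 in double knockouts and 2471 to 4112 in controls). Of 2 tested T and NK cell markers 1 rose, Cd4 (list sums 137 to 181 in double knockouts and 41.1 to 68.5 in controls), of 2 tested red cell and megakaryocyte markers 1 rose, Pf4 (sums 7765 to 8049 in double knockouts and 3733 to 4330.1 in controls), and the single tested B cell marker, Cd79b, fell (sums 47.8 to 67.0 in double knockouts and 122 to 148 in controls), these 3 being named after their values were seen. The defining T and NK cell markers Cd3e, Cd3d, Cd3g, Trac and Ncr1 and the red cell markers Hba-a1 and Hbb-bs were at 0 in all libraries. The part of these shifts in the values of the cAMP genes was not tested. In bulk RNA, fewer cells of a type and less RNA per cell cannot be told apart.

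The RefSeq promoter table (GRCm38.p6, 250 bases before to 50 bases after a transcript start) held 15 windows for 7 of the 10 genes. Adcy6, Pde3b and Pde7a were not matched. The windows were searched on both strands for the cAMP response element TGACGTCA, for its core TGACG, which reads CGTCA on the opposite strand, and for the AP-1 type element TGANTCA (N for any base). The full element was in 0 of the 15 windows and in 1.79% of all 32851 windows of the table. The core, which also lies within the full element, was in 5 of 15 (a window each of Adcy7, Adcy9, Pde4a, Pde4b and Pde8a) and in 20.8% of all windows. The AP-1 type element was in 2 of 15 (Adcy3 and Adcy7) and in 7.81% of all windows. The table has 2 windows for Adcy3 and 3 for Adcy7, and for each the one with the AP-1 type match is printed. Another Adcy7 window holds the core, beginning 28 bases before its start, and the remaining window of each gene holds none of these motifs. The windows printed are of the cyclases Adcy3 and Adcy7, whose libraries separated by genotype, and of Pde8a, the most abundant phosphodiesterase of the family per kilobase. Capitals mark the motif found.
Adcy3 promoter, chr12:4133147-4133446, plus strand: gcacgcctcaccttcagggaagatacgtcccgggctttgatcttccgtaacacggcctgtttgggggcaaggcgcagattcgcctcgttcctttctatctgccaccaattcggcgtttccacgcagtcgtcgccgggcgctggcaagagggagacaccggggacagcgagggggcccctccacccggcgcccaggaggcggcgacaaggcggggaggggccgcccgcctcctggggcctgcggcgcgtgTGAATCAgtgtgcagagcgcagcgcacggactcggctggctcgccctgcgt
Adcy7 promoter, chr8:88288816-88289115, plus strand: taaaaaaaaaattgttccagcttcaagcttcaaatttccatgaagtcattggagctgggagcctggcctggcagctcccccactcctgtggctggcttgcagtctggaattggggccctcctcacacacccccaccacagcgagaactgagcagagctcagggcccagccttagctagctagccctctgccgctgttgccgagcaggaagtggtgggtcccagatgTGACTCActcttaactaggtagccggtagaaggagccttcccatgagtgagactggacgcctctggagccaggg
Pde8a promoter, chr7:81213015-81213314, plus strand: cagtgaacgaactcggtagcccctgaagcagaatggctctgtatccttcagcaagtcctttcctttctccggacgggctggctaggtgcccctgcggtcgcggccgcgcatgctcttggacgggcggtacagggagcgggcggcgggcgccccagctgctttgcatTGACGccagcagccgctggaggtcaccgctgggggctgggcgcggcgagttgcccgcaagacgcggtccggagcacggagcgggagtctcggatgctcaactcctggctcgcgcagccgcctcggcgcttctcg
The Adcy3 match TGAATCA begins 1 base before the start, and the Adcy7 match TGACTCA begins 24 bases before it. The Pde8a match is the core and begins 84 bases before the start. The RefSeq start of this Pde8a window differs from the gene start in GENCODE (chr7:81213596), and the whole window lies upstream of the latter. Base composition ranged over the 15 windows, with a GC share of 39.7% to 78.3%, and was 68.7% for the printed Adcy3 and Pde8a windows alike. A match is a description of the letters, and gene totals do not show which start was used.

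Of the 10 genes, 9 passed the filter on low values (10 or more in 4 or more libraries), and Adcy6 did not. In the fit across all 11675 genes tested, 3 of the 9 were higher in the double knockout (Adcy3, Pde7a and Pde8a), where 22.9% of all genes tested were, and 1 was lower (Adcy7), where 23.8% were. Together 4 of 9 passed, against a background of 46.6% of all genes tested. The libraries of the groups did not overlap for Adcy3, Adcy7 and Pde7a, and 42.9% of all genes tested were without overlap. The median log2 difference (double knockout minus control) was 0.24 over the 9 genes and 0.01 over all genes tested. The choice of the genes used this contrast, so nothing is read from these counts.

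**Figure D1:**
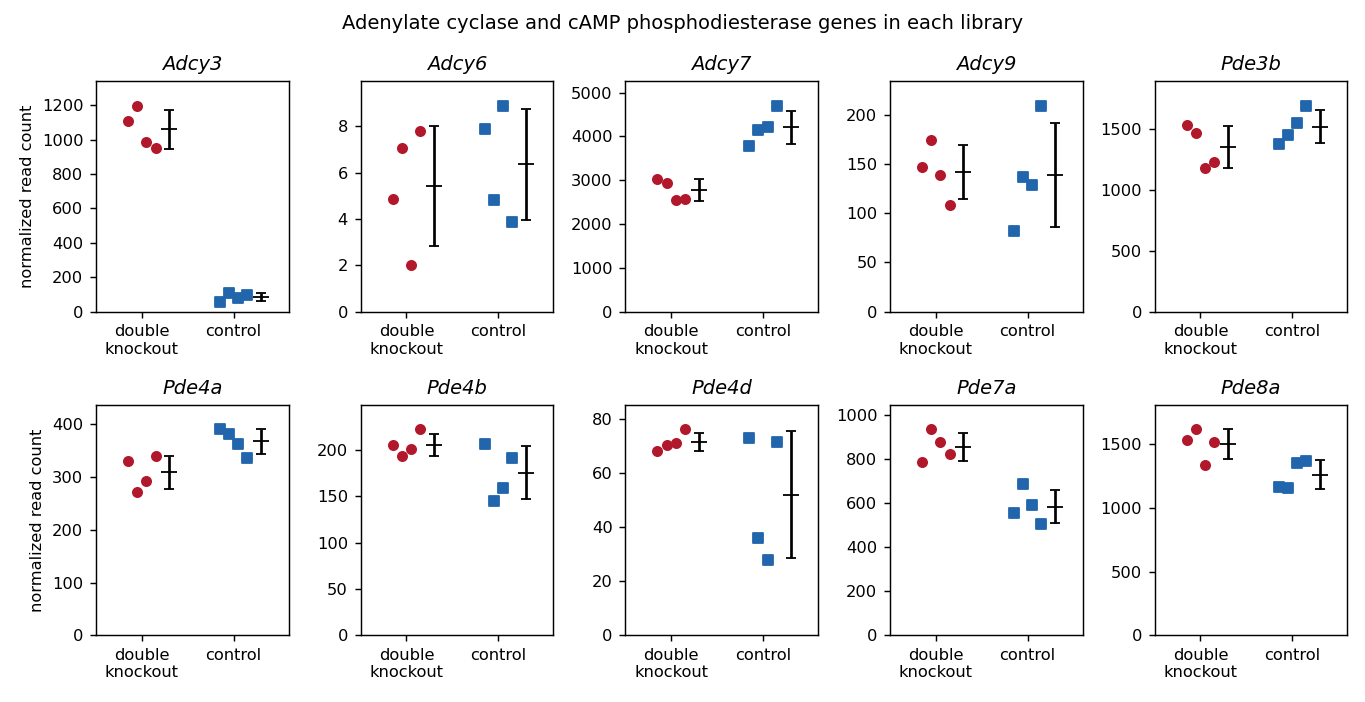
Normalized read counts of the 10 genes in each library (vertical axes from 0), with double knockout libraries as red circles and control libraries as blue squares, and the mean ± SD of the 4 libraries in black. The double knockout libraries of Adcy3 lie far above the control libraries, those of Adcy7 lie below them, and those of Pde7a lie above them, while the groups overlap for the other 7 genes.

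Among the cyclases, the RNA of Adcy3 differed most. Adcy3 (ENSMUSG00000020654, chr12:4133103-4213525, plus strand) encodes a membrane cyclase best known from the cilia of olfactory neurons. It stood at 1109.7, 1196, 987 and 950.1 in double knockout libraries 1 to 4, against 55.0, 108, 79.9 and 96.4 in control libraries 1 to 4. The lowest double knockout library lay far above the highest control library. The log2 difference was 3.67 (SE 0.19), a 12.7-fold higher level on the log2(value + 1) scale. It ranged from 3.47 to 3.80 over the 17 alternative settings. Within the groups, the coefficient of variation was 10.7% in double knockouts and 27.2% in controls. Double knockouts 1 and 2 averaged 1153 and double knockouts 3 and 4 averaged 969, a gap small beside that between the genotypes.

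Adcy3 shares 1380 of its 6246 annotated exon bases (22.1%) with the antisense gene Cenpo, a centromere protein gene, and these include all 921 bases of its last exon (chr12:4212605-4213525). Whether counting used strand is not stated, so reads from the shared bases cannot be told apart by gene. Cenpo stood at 303, 264, 354 and 293 in double knockout libraries 1 to 4, against 423, 499, 599 and 457 in control libraries 1 to 4. Cenpo was thus lower in each double knockout library than in every control library (log2 -0.70, SE 0.13, adjusted p = 0.00102), in the opposite direction to Adcy3.

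Adcy7 (ENSMUSG00000031659, chr8:88272403-88329962, plus strand) encodes a cyclase known for its high expression in blood cells and macrophages. It stood at 3026, 2947, 2557 and 2579 in double knockout libraries 1 to 4, against 3774, 4149, 4219 and 4698 in control libraries 1 to 4. All 4 double knockout libraries lay below all 4 control libraries. The log2 difference was -0.60 (SE 0.08), and the double knockout mean was 0.660 of the control mean. It ranged from -0.65 to -0.55 over the alternative settings. Double knockouts 1 and 2 averaged 2987 and double knockouts 3 and 4 averaged 2568.

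Adcy9 (ENSMUSG00000005580, chr16:4287529-4420498, minus strand) encodes a widely expressed cyclase that responds little to forskolin. It stood at 147, 175, 139 and 108 in double knockout libraries 1 to 4, against 81.6, 137, 129 and 209 in control libraries 1 to 4. The control libraries spanned more than the whole range of the double knockouts. The log2 difference of 0.09 (SE 0.26) changed sign without double knockout 2 (-0.02) and without control 1 (-0.14). Adcy6 (ENSMUSG00000022994, chr15:98589973-98610076, minus strand) encodes a cyclase that calcium inhibits. It stood at 4.85, 7.04, 2.00 and 7.80 in double knockout libraries 1 to 4, against 7.86, 4.83, 8.88 and 3.86 in control libraries 1 to 4. These values are at the level of a few reads and the groups overlap, so a difference in Adcy6 was not detectable at this depth. Its exons also share bases with Gm29331, an annotated gene on the opposite strand.

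To set genes of different length beside each other, normalized reads were divided by the kilobases of annotated exon. On this scale the 10 cyclase genes of the table summed to 701, 710.2, 619 and 592 in double knockout libraries 1 to 4, against 621, 702, 709.9 and 805 in control libraries 1 to 4. The sums of the groups overlapped, at 655 ± 59.0 in double knockouts and 709.7 ± 75.1 in controls (SD, n = 4 each). The make-up of the sum differed by genotype. Adcy7 made up 63.0% ± 1.72 in double knockouts and 88.2% ± 1.48 in controls. Adcy3 made up 25.4, 27.0, 25.5 and 25.7% in double knockout libraries 1 to 4, against 1.42, 2.47, 1.80 and 1.92% in control libraries 1 to 4. Neither gene's shares overlapped between the groups. Adcy2, a cyclase known from brain that is not among the 10 genes, made up 5.87% to 8.63% in double knockouts and 5.67% to 6.26% in controls, and Adcy9 4.15% ± 0.514 in double knockouts and 3.69% ± 1.02 in controls, both with overlap. A share moves whenever another gene of the sum moves, so the lower Adcy7 share also holds the higher Adcy3 level. With the longest annotated transcript as the length, Adcy3 made up 25.8% in double knockouts and 1.89% in controls.

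**Figure D2:**
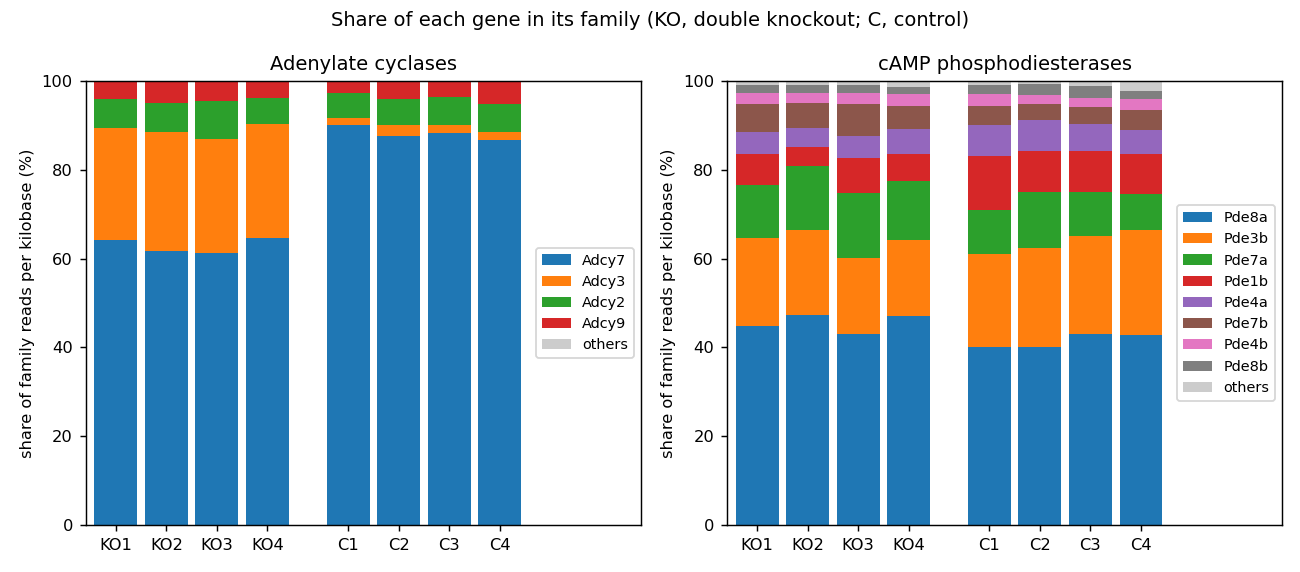
Share of each gene (vertical axis, percent of normalized reads per kilobase of its family) in each library, double knockouts (KO) on the left and controls (C) on the right of each panel, with cyclases in the left panel and cAMP phosphodiesterases in the right panel. Adcy3 takes 25.9% of the cyclase sum on average in double knockouts and 1.90% in controls, while the phosphodiesterase families keep Pde8a as the largest share in every library.

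Among the phosphodiesterases, the differences of Pde7a and Pde8a were small beside that of Adcy3. Pde7a (ENSMUSG00000069094, chr3:19223108-19311322, minus strand) encodes a high-affinity, cAMP-specific enzyme that rolipram, the PDE4 inhibitor, does not block. It stood at 784, 934, 875 and 822 in double knockout libraries 1 to 4, against 554, 685, 593 and 504 in control libraries 1 to 4. All double knockout libraries lay above all control libraries, the nearest being double knockout 1 and control 2. The log2 difference was 0.55 (SE 0.10), which is 1.47-fold, and 0.49 to 0.63 over the alternative settings as a log2 difference. Its exons share bases with Gm16093 on the opposite strand.

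Pde8a (ENSMUSG00000025584, chr7:81213596-81334533, plus strand) encodes a high-affinity, cAMP-specific enzyme that the general inhibitor IBMX does not block. It stood at 1534, 1614, 1334 and 1512 in double knockout libraries 1 to 4, against 1167, 1154, 1351 and 1366 in control libraries 1 to 4. Double knockout 3 lay below controls 3 and 4, and the other 3 double knockouts lay above every control. The log2 difference was 0.25 (SE 0.09). In 8 of 17 alternatives it was not past the threshold, namely without double knockout 1 (0.24), 2 (0.21) or 4 (0.25), without control 1 (0.22) or 2 (0.21), with the double knockout pairs averaged (0.25), without the trend and robust options (0.25) and with the replicate number as a block (0.25), each value being a log2 difference.

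The remaining phosphodiesterases of the set did not pass the threshold, and their groups overlapped. Pde3b (ENSMUSG00000030671, chr7:114415281-114539251, plus strand) encodes an enzyme of insulin signalling that cGMP inhibits, and it stood at 1532, 1467, 1183 and 1229 in double knockout libraries 1 to 4, against 1377, 1453, 1551 and 1692 in control libraries 1 to 4. Double knockouts 3 and 4 lay below every control and double knockouts 1 and 2 lay within the control range, with a log2 difference of -0.17 (SE 0.10). Between the double knockout pairs the ratio of means was 1.24 (libraries 1 and 2 over 3 and 4).

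The PDE4 enzymes are cAMP-specific and rolipram-sensitive, and Pde4b is known to be needed for full cytokine release from mouse macrophages given endotoxin. Pde4a (ENSMUSG00000032177, chr9:21165714-21213248, plus strand) stood at 331, 272, 292 and 339 in double knockout libraries 1 to 4, against 390.2, 382, 363 and 336 in control libraries 1 to 4. Only double knockout 4 reached into the control range, and the log2 difference was -0.25 (SE 0.11). Pde4b (ENSMUSG00000028525, chr4:102087543-102607259, plus strand) stood at 206, 194, 201 and 222 in double knockout libraries 1 to 4, against 206, 145, 159 and 192 in control libraries 1 to 4. Control 1 lay within the double knockout range and the other controls lay below it, with a log2 difference of 0.24 (SE 0.14). Pde4d (ENSMUSG00000021699, chr13:108449948-109953461, plus strand) stood at 68.0, 70.4, 71.0 and 76.0 in double knockout libraries 1 to 4, against 72.7, 35.8, 27.7 and 71.4 in control libraries 1 to 4. Controls 1 and 4 lay at the level of the double knockouts and controls 2 and 3 well below them, and the log2 difference was 0.57 (SE 0.31).

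The spread of Pde4d was 4.74% of the mean in double knockouts and 45.3% in controls. Summed over the 4 PDE4 genes per kilobase, the level was 65.8 ± 5.33 in double knockouts and 69.0 ± 5.18 in controls (SD, n = 4 each), and the groups overlapped. The PDE7 pair, Pde7a with its paralog Pde7b, summed to 155, 168, 169 and 147 in double knockout libraries 1 to 4, against 102, 115, 107 and 101 in control libraries 1 to 4. These sums did not overlap. All 16 cAMP phosphodiesterase genes of the table summed to 812 ± 39.5 in double knockouts and 749 ± 38.7 in controls per kilobase, with double knockout 3 inside the control range. Within that sum, Pde8a made up 45.6% ± 2.06 in double knockouts and 41.5% ± 1.66 in controls, Pde3b 18.2% ± 1.47 in double knockouts and 22.2% ± 1.06 in controls and Pde7a 13.6% ± 1.24 in double knockouts and 10.1% ± 1.72 in controls. Pde1b made up 6.31% ± 1.45 in double knockouts and 9.88% ± 1.52 in controls, and Pde7b 6.10% ± 0.952 and 4.12% ± 0.331. Of these shares only those of Pde7a overlapped between the groups. With the longest annotated transcript as the length, the Pde8a shares overlapped too (34.3% to 38.7% in double knockouts, 32.1% to 35.2% in controls).

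**Figure D3:**
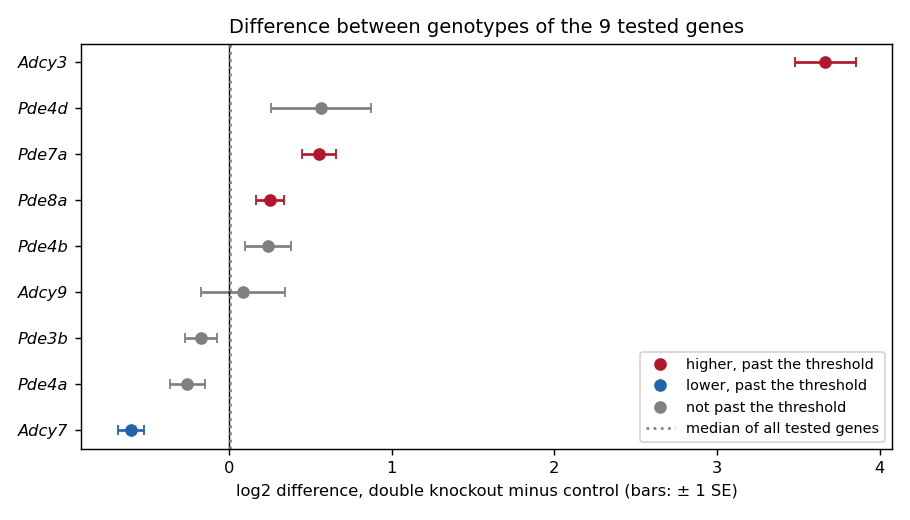
Log2 difference between genotypes (horizontal axis, double knockout minus control, bars ± 1 SE) of the 9 genes tested, in red or blue where past the threshold and in grey where not, with the median of all genes tested as a dotted line. Adcy3 at 3.67 stands apart from the other 8 genes, which lie between -0.60 and 0.57.

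Ordered by normalized reads per kilobase of annotated exon, the double knockout means of the 10 genes were 412 ± 36.3 for Adcy7, 371 ± 29.2 for Pde8a, 169.8 ± 18.1 for Adcy3, 148 ± 18.9 for Pde3b, 110.2 ± 8.38 for Pde7a, 40.3 ± 4.14 for Pde4a, 27.4 ± 5.28 for Adcy9, 19.5 ± 1.13 for Pde4b, 5.94 ± 0.282 for Pde4d and 0.799 ± 0.383 for Adcy6 (SD, n = 4). The libraries of neighbours in this order overlapped for Adcy7 and Pde8a, for Adcy3 and Pde3b, and for Adcy9 and Pde4b, and for no other neighbours. In controls the order was Adcy7 (625 ± 56.4), Pde8a (311 ± 28.3), Pde3b (167 ± 14.9), Pde7a (75.4 ± 9.88), Pde4a (48.0 ± 3.16), Adcy9 (26.8 ± 10.1), Pde4b (16.6 ± 2.70), Adcy3 (13.6 ± 3.69), Pde4d (4.32 ± 1.96) and Adcy6 (0.937 ± 0.353). Overlap between neighbours was found there for Adcy9 and Pde4b and for Pde4b and Adcy3. Adcy3 thus stood at place 3 of the 10 genes in double knockouts and at place 8 in controls, while Adcy7 and Pde8a led in both groups. With the longest annotated transcript as the length, Adcy3 stood at place 4 in double knockouts, below Pde3b, and at place 8 in controls. Transcripts of Pde4b and Pde4d are many and of unequal length, and their level per kilobase moved to 47.8 and 17.0 in double knockouts with that length.

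The other genes of the pathway were taken from lists by role. Of 163 such genes with a row, 108 were tested, of which 26 rose and 31 fell in the double knockout, against 22.9% and 23.8% of all genes tested. The counts of each role below stand against these same shares, and no role was tested as a set. The groups did not overlap for 60 of the 108, and for 42.9% of all genes tested. The median log2 difference was -0.01. Of the 6 other cyclases, 1 was tested, Adcy2, at 188 ± 32.5 in double knockouts and 179.8 ± 26.7 in controls (log2 0.06, SE 0.16, adjusted p = 0.784). Of the other cAMP phosphodiesterases 4 were tested. Pde7b, the paralog of Pde7a, rose to 615 ± 86.1 in double knockouts, against 385 ± 45.5 in controls (log2 0.67, SE 0.12, adjusted p = 0.000923). Pde1b, an enzyme that calcium and calmodulin activate, fell to 275 ± 57.8 in double knockouts, against 398 ± 51.0 in controls (log2 -0.55, SE 0.16, adjusted p = 0.0148). Its relative Pde1c, at 7.90 ± 5.70 in double knockouts and 24.4 ± 8.55 in controls, also fell (log2 -1.71, SE 0.55, adjusted p = 0.0236), a call lost without double knockout 1 or 2 or control 3 or 4 (adjusted p = 0.058 to 0.0651). Pde8b stood at 87.3 ± 10.3 in double knockouts and 98.7 ± 18.6 in controls (log2 -0.16, SE 0.19, adjusted p = 0.503). None of the 5 cGMP phosphodiesterase genes passed the filter on low values.

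Of 9 tested receptors that couple to Gs, 2 rose and 5 fell. Gpr65, a receptor that senses protons, rose to 8689 ± 416 in double knockouts, against 3519.9 ± 114 in controls (log2 1.30, SE 0.06, adjusted p = 6.85e-09). Calcrl, part of the receptors for adrenomedullin and calcitonin gene-related peptide, fell to 544 ± 90.2 in double knockouts, against 2718 ± 133 in controls (log2 -2.33, SE 0.10, adjusted p = 8.78e-09). Ptger4, a prostaglandin E receptor, fell to 227 ± 49.4 in double knockouts, against 681 ± 24.0 in controls (log2 -1.61, SE 0.14, adjusted p = 2.78e-06). Further calls were log2 0.42 for Ptger2, -0.74 for Ptgir and -1.26 for Adora2b, which were named after their values were seen. Hrh2, a histamine receptor, stood at 30.2 ± 14.1 in double knockouts and 46.6 ± 9.86 in controls (log2 -0.71, SE 0.36, adjusted p = 0.124, and 0.044 without double knockout 3).

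Of 13 tested receptors that couple to Gi, 2 rose and 7 fell. Chemokine receptors, which also couple to Gi, were left out of this list. S1pr1, a sphingosine phosphate receptor, stood at 4342, 4357, 4027 and 4333 in double knockout libraries 1 to 4, against 1646, 1489, 1517 and 1674 in control libraries 1 to 4. Every double knockout library was above every control library (log2 1.43, SE 0.06, adjusted p = 6.83e-09), and double knockout 3 lay apart from the other 3 of its group. Fpr2, a formyl peptide receptor, fell to 28.9 ± 7.77 in double knockouts, against 239 ± 31.3 in controls (log2 -3.03, SE 0.22, adjusted p = 4.42e-07). Gpr84, a receptor of fatty acids, fell to 188 ± 29.5 in double knockouts, against 766 ± 51.9 in controls (log2 -2.03, SE 0.12, adjusted p = 9.83e-08). C5ar1, the complement C5a receptor, fell to 14543 ± 611 in double knockouts, against 22859 ± 644 in controls (log2 -0.65, SE 0.05, adjusted p = 1.55e-06). Cnr2, a cannabinoid receptor, stood at 315 ± 52.0 in double knockouts and 382 ± 73.3 in controls (log2 -0.27, SE 0.16, adjusted p = 0.201, and 0.045 without control 1).

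Of 15 tested G protein subunits and chaperones, 7 rose and 1 fell, against 22.9% and 23.8% of all genes tested. Gng12, a gamma subunit, stood at 3759, 3709, 4130.3 and 4065 in double knockout libraries 1 to 4, against 3026, 3027, 3275 and 3056 in control libraries 1 to 4. It rose by a small amount (log2 0.34, SE 0.06, adjusted p = 0.000716), and control 3 lay apart from the other controls. Gnai3, an inhibitory alpha subunit, stood at 3601, 3931, 4048 and 4026 in double knockout libraries 1 to 4, against 3007, 2968, 3011 and 3443 in control libraries 1 to 4. It also rose (log2 0.33, SE 0.07, adjusted p = 0.00184), with control 4 apart from the other controls. The gene that fell was Gnai2, also an inhibitory alpha subunit, at 21442 ± 1018 in double knockouts and 25379 ± 1031 in controls. Its libraries did not overlap (log2 -0.24, SE 0.06, adjusted p = 0.00444), and it was named after its value was seen. Gng11, a gamma subunit, stood at 324, 327, 374 and 321 in double knockout libraries 1 to 4, against 248, 247, 195 and 204 in control libraries 1 to 4, with double knockout 3 apart (log2 0.59, SE 0.12, adjusted p = 0.00184). Ric8a, a chaperone of alpha subunits, rose to 1431 ± 96.5 in double knockouts, against 947 ± 144 in controls (log2 0.61, SE 0.10, adjusted p = 0.000517). Gnas, which encodes the stimulatory alpha subunit itself, stood at 13070.4 ± 921 in double knockouts and 12099 ± 1136 in controls and did not pass (log2 0.11, SE 0.08, adjusted p = 0.252). Gnal, which encodes a related stimulatory alpha subunit, rose to 255 ± 24.3 in double knockouts, against 157 ± 40.5 in controls. Its libraries did not overlap (log2 0.73, SE 0.18, adjusted p = 0.00581), and it was named after its value was seen.

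Of 9 tested RGS genes, whose proteins speed GTP hydrolysis by G proteins, 1 rose and 3 fell. Rgs18 fell to 727 ± 43.8 in double knockouts, against 1020.2 ± 29.6 in controls (log2 -0.49, SE 0.07, adjusted p = 0.000219). Rgs12 fell to 142 ± 13.3 in double knockouts, against 219 ± 17.1 in controls (log2 -0.62, SE 0.13, adjusted p = 0.00202). Rgs3 stood at 304 ± 67.4 in double knockouts and 407 ± 35.3 in controls (log2 -0.44, SE 0.16, adjusted p = 0.0379), a call lost without double knockout 1 or 3 or control 2, 3 or 4 (adjusted p = 0.0627 to 0.0848), under quantile normalization, without the trend and robust options or with low genes kept in (adjusted p = 0.0509 to 0.0865). Rgs2 stood at 6764 ± 214 in double knockouts and 6798 ± 350.1 in controls (log2 -0.01, SE 0.06, adjusted p = 0.94). The gene that rose was Rgs16, at 71.4 ± 9.88 in double knockouts and 24.9 ± 6.73 in controls, named after its value was seen.

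Of 7 tested receptor kinases and arrestins, which end receptor signalling, 1 rose and 4 fell. Grk2 stood at 6576, 6208, 6457 and 6521 in double knockout libraries 1 to 4, against 7935, 8515, 7838 and 7827 in control libraries 1 to 4. It fell (log2 -0.32, SE 0.05, adjusted p = 0.000529), and control 2 lay apart from the other controls. Grk5 fell to 99.6 ± 25.4 in double knockouts, against 171 ± 24.5 in controls (log2 -0.79, SE 0.19, adjusted p = 0.00533). Arrb1 fell to 1877 ± 216 in double knockouts, against 3086 ± 836 in controls (log2 -0.69, SE 0.16, adjusted p = 0.00454). Arrb2, the other beta arrestin gene, rose to 10579.5 ± 754 in double knockouts, against 8686 ± 425 in controls (log2 0.28, SE 0.07, adjusted p = 0.00392). Grk3 stood at 196 ± 34.7 in double knockouts and 173 ± 64.1 in controls (log2 0.23, SE 0.23, adjusted p = 0.435).

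Downstream, of 8 tested genes of protein kinase A subunits and of its inhibitor peptides, 2 rose and 3 fell. The 2 genes that rose encode inhibitors, and the 3 that fell encode subunits. The subunit genes Prkaca, Prkar1a and Prkar1b did not pass. The type II regulatory subunit genes fell: Prkar2b fell to 271 ± 28.9 in double knockouts, against 711 ± 60.4 in controls (log2 -1.39, SE 0.11, adjusted p = 8.25e-07), and Prkar2a fell to 1162 ± 41.6 in double knockouts, against 2272 ± 219 in controls (log2 -0.96, SE 0.08, adjusted p = 1.06e-06). The catalytic subunit gene Prkacb fell to 6463 ± 285 in double knockouts, against 8053 ± 785 in controls (log2 -0.31, SE 0.07, adjusted p = 0.00416). The other catalytic subunit gene tested, Prkaca, stood at 1456 ± 103 in double knockouts and 1461 ± 75.4 in controls (log2 -0.01, SE 0.07, adjusted p = 0.956). Pkib, an inhibitor of the kinase, rose to 1164 ± 266 in double knockouts, against 527 ± 158 in controls (log2 1.16, SE 0.21, adjusted p = 0.000957). Pkig, another inhibitor, also rose (log2 0.36, SE 0.11, adjusted p = 0.0153). Pkig, Prkaca and Prkar1b were named after their values were seen. Prkar1a, a type I regulatory subunit gene, stood at 11993 ± 478 in double knockouts and 10948 ± 237 in controls. Its libraries did not overlap, but it did not pass (log2 0.13, SE 0.05, adjusted p = 0.0619), except without double knockout 1 or control 4 (adjusted p = 0.0435 to 0.0486) and with DESeq2 (adjusted p = 0.0203). Of 11 tested anchoring proteins of the kinase, 1 rose and 0 fell. Akap7 rose to 259 ± 54.9 in double knockouts, against 149 ± 13.1 in controls (log2 0.76, SE 0.17, adjusted p = 0.00313). Akap13 stood at 3986 ± 521 in double knockouts and 3875 ± 895 in controls (log2 0.06, SE 0.15, adjusted p = 0.772).

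Of the EPAC and Rap1 genes, 3 were tested, of which 2 rose and 1 fell. Rap1a fell to 2783 ± 146 in double knockouts, against 3903 ± 286 in controls (log2 -0.49, SE 0.07, adjusted p = 0.000113). Rap1b rose to 22958 ± 474 in double knockouts, against 20148 ± 629 in controls (log2 0.19, SE 0.05, adjusted p = 0.00986). This call was lost under quantile normalization (adjusted p = 0.159) and with the replicate number as a block (adjusted p = 0.0521). It was also lost when double knockouts 1 and 2, and 3 and 4, were averaged (adjusted p = 0.0685). Rapgef3, which encodes EPAC1, rose at a low level (log2 1.17, SE 0.39, adjusted p = 0.0269, mean 34.1 over all libraries) and was named after its value was seen. Its groups overlapped, with the lowest double knockout library at 31.1 and the highest control library at 31.9. Of 11 tested genes of the CREB family, its coactivators and the salt-inducible kinases, 2 rose and 0 fell. Crem, whose product includes the cAMP-induced repressor ICER, rose to 625 ± 67.3 in double knockouts, against 254 ± 21.2 in controls (log2 1.30, SE 0.11, adjusted p = 1.77e-06). A gene total does not separate the ICER transcript from the other Crem transcripts. Crebbp, a coactivator, rose to 1061 ± 106 in double knockouts, against 828 ± 41.5 in controls (log2 0.35, SE 0.09, adjusted p = 0.00527). Its relative Ep300 stood at 1812 ± 200.1 in double knockouts and 2216 ± 367 in controls (log2 -0.28, SE 0.12, adjusted p = 0.0643), and passed without double knockout 2 or control 1 or 2 (adjusted p = 0.0283 to 0.0484) and with DESeq2 (adjusted p = 0.0416).

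Of 12 tested genes known to be induced by cAMP in other settings, 5 rose and 2 fell. Thbs1, which encodes thrombospondin, rose to 3107 ± 195 in double knockouts, against 705 ± 129 in controls (log2 2.16, SE 0.12, adjusted p = 5.26e-08). Nr4a1, a nuclear receptor gene, rose to 378 ± 32.2 in double knockouts, against 167 ± 17.0 in controls (log2 1.17, SE 0.12, adjusted p = 9.29e-06). Vegfa, a growth factor of blood vessels, rose to 951 ± 60.9 in double knockouts, against 429 ± 62.4 in controls (log2 1.16, SE 0.11, adjusted p = 5.70e-06). Fos, an early response gene, fell to 1164 ± 133 in double knockouts, against 3616 ± 163 in controls (log2 -1.64, SE 0.08, adjusted p = 2.22e-08). Dusp1, a phosphatase of MAP kinases, stood at 1935 ± 231 in double knockouts and 1831 ± 131 in controls (log2 0.07, SE 0.09, adjusted p = 0.525). These genes answer many signals besides cAMP, and cAMP itself was not measured. Nr4a1 is also among the 9 monocyte markers.

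Of 5 tested exporters and scaffolds, 0 rose and 3 fell. Cap1, an actin regulator named for its binding to cyclase in yeast, fell to 21108 ± 461 in double knockouts, against 33395 ± 1487 in controls (log2 -0.66, SE 0.05, adjusted p = 1.34e-06). Abcc4, a transporter known to export cAMP, fell to 297 ± 32.3 in double knockouts, against 450.1 ± 23.3 in controls (log2 -0.60, SE 0.11, adjusted p = 0.00067). Abcc5, another nucleotide transporter, stood at 522 ± 139.8 in double knockouts and 721 ± 104 in controls (log2 -0.49, SE 0.17, adjusted p = 0.0333), a call lost without double knockout 1, 2 or 4 or control 1 or 4 (adjusted p = 0.0555 to 0.0917), without the trend and robust options or with the replicate number as a block (adjusted p = 0.0598 to 0.0698).

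**Figure D4:**
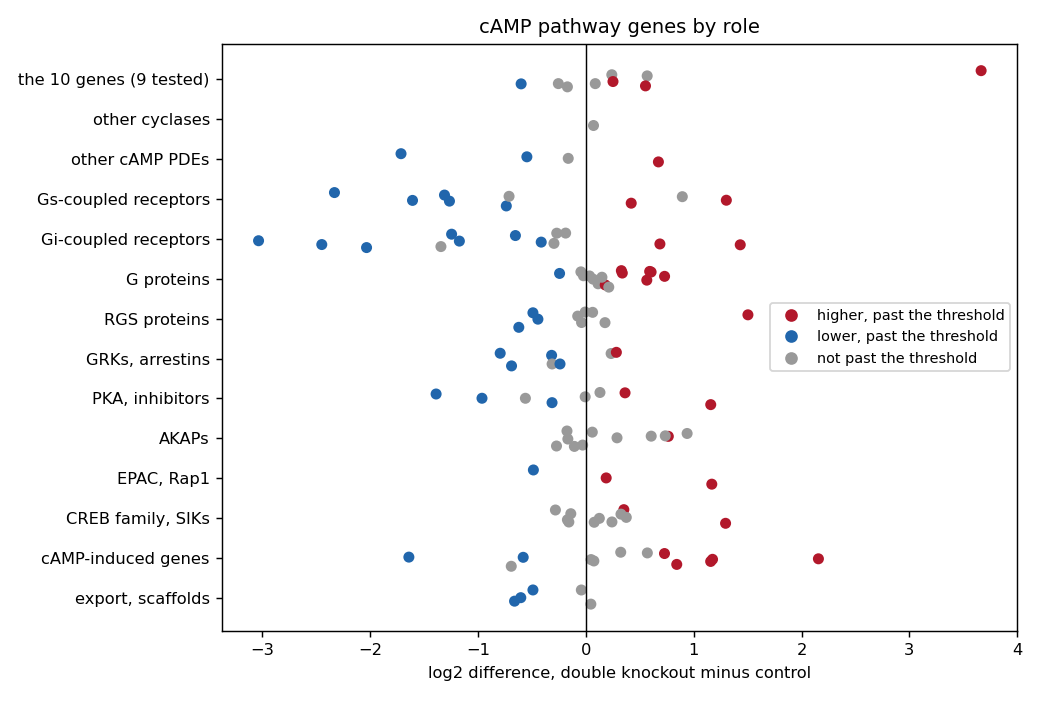
Log2 difference between genotypes (horizontal axis, double knockout minus control) of each tested gene, in rows by role with the 10 genes described first, in red or blue where past the threshold and in grey where not; vertical scatter within a row has no meaning. Adcy3 at 3.67 lies to the right of every other gene drawn. The Gs and Gi receptor rows hold the lowest values, down to -3.03 for Fpr2, and the Gi row leaves out chemokine receptors.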

How the data were processed

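Libraries of polyadenylated RNA, 4 per genotype, were prepared with a Kapa kit and read from both ends (150 bases each) on a NovaSeq X, per the labels' protocols. Salmon 1.4.0, DESeq2 and the mouse build mm10 are named in the submitters' processing notes, without their settings. Annotation release, filters and strand use are not stated in the sources. The deposited values are a signal: the authors gave normalized counts, 1 per gene and library, for 34432 rows. In every library 100% of the values were whole reads over a size factor (0.901 to 1.04), within a tolerance of 0.01. The recovered reads, 17856715 to 21353207 per library, served for depth and for alternative count tests. The quasi-likelihood test of edgeR 4.0.16 with TMM factors found 2589 higher and 2782 lower genes. DESeq2 1.42.0 found 2787 higher and 2891 lower.

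For the main comparison, limma 3.58.1 (R 4.3.3) was run on log2 values after adding 1, with its trend and robust options, as a two-sided test of genotype without other terms. Genes needed 10 or more in 4 or more libraries, which left 11675, and Benjamini-Hochberg adjustment ran over all of these with a threshold of 0.05. The procedure was tested on simulated data. The scale understates changes of low genes. Coordinates and exon lengths are from GENCODE vM21 on mm10, and promoter windows from RefSeq.

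The members and the lists were chosen with earlier results of these data known. Named are the 10 members, Cdk8 and Cdk19, every other tested Adcy or Pde gene, up to 4 genes of each other pathway list with the smallest adjusted p (calls only, mean 50 or more), and of each list the gene with the highest mean that did not pass; exceptions are stated. Some genes of the lists are counted there and not reported here by name. The 17 alternatives were 2 other pseudocounts, no filter, no trend and robust options, quantile normalization, a replicate block, averaged double knockout pairs, each library left out, edgeR and DESeq2.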

Additional observations from a re-analysis of the deposited data

Results flagged for a closer look

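Among the genes named by the stated rule, 5 groups of 4 libraries held a library far from the other 3. Dixon's criterion was used, with gaps of 0.843 to 0.925 of the group's range. S1pr1 was at 4027 in double knockout 3, below the other double knockouts. Gng11 was at 374 in double knockout 3, above the other double knockouts. Gnai3 was at 3443 in control 4, Gng12 at 3275 in control 3 and Grk2 at 8515 in control 2, each above the other controls. Chance flags about 1 in 20 groups, and 124 groups were examined. None of the 10 cyclase and phosphodiesterase genes was flagged in either group. In each of the 5 flagged genes the double knockout and control libraries did not overlap with the flagged library included.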

How the results depend on the processing

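The counts of genes past the threshold stayed within 1.5 times of those reported under all 17 alternatives. Leaving out each library gave 2244 to 2614 genes higher and 2353 to 2681 lower, 2 to 3 of the 9 members higher and 1 lower, and 25 to 29 pathway genes higher and 28 to 34 lower. Quantile normalization gave 3038 genes higher and 2505 lower. Same-numbered libraries did not deviate together (correlations of -0.05, 0.03, -0.04 and -0.04 for numbers 1 to 4), and no double knockout library correlated best with the control of its own number. With the replicate number as a block, 2215 genes were higher and 2434 lower, and of the members 2 were higher and 1 lower, Pde8a not passing. Among the other genes named by the stated rule, the block ended the calls of Cdk8, Rap1b and Abcc5.

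Among genes that did not pass, the sign turned in some settings. Leaving out each library in turn gave -0.028 to 0.18 for Adcy2, -0.066 to 0.20 for Akap13 and -0.032 to 0.017 for Rgs2 as log2 differences. Quantile normalization gave 0.00378 for Pde8b and 0.00348 for Rgs2. The cause was not tested. Over all genes named by the stated rule outside the members, and all settings, calls were lost in 33 instances and gained in 9. Adcy6 lies too low for a difference to be seen at this depth, and neither enzyme protein nor cAMP was measured.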
